A study of Homo sapiens with 9 samples.

Results

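The ATP-binding cassette (ABC) transporters were examined in Hep3B cells, a human hepatocellular carcinoma line, after 24 hours in 3 conditions. Members were the genes of the deposited count table whose symbol is ABC followed by 1 letter from A to G and a number, which gave 46 of 60683 genes, of which ABCC13 is annotated as a transcribed pseudogene. The 3 groups, each of 3 biological replicates, were vehicle (DMSO) at 20% O2, vehicle at 1% O2 and the hypoxia-inducible factor (HIF) inhibitor 32-134D at 1% O2, for which a dose of 5 µM is given in the study's text and not in the sample labels. All 9 cultures came from the same cell line and no library of 32-134D at 20% O2 was analysed here.

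ABC proteins bind and hydrolyze ATP through a pair of nucleotide-binding domains and, in most subfamilies, use that energy to move lipids, bile constituents, drugs, peptides or metal complexes across membranes. In the liver they load cholesterol onto apolipoproteins, secrete bile salts, phospholipid and conjugated bilirubin into the bile canaliculus, and return conjugates to the blood. Subfamilies E and F lack membrane-spanning segments and act in translation. HIF-1 and HIF-2 are transcription factors that accumulate when O2 is low and bind the core letters ACGTG or GCGTG in hypoxia-response elements.

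Because that core can be looked for in DNA, the 250 bases before the annotated transcription start were read for 4 members whose results stand apart, from RefSeq on GRCh38.p14, 5′ to 3′ along the strand of the gene, with each ACGTG or GCGTG on either strand in capitals. ABCA1 (ENSG00000165029, chr9:104928156-104928405, - strand) was among the 2 members with the largest fall in hypoxia among those with at least 1 CPM (read counts scaled to library size), ABCA7 (ENSG00000064687, chr19:1039857-1040106, + strand) and ABCC6 (ENSG00000091262, chr16:16223495-16223744, - strand) stayed lower with 32-134D than at 20% O2, and ABCB10 (ENSG00000135776, chr1:229558708-229558957, - strand) was higher in hypoxia.
ABCA1: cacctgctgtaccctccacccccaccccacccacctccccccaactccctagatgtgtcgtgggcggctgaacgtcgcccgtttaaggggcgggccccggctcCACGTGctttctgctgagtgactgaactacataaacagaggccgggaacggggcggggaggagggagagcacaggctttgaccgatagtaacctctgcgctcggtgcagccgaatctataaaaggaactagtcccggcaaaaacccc
ABCA7: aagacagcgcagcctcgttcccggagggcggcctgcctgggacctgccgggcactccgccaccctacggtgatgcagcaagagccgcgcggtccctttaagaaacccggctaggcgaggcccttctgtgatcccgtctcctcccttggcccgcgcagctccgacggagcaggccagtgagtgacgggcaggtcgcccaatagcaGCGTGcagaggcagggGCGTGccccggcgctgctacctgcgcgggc
ABCC6: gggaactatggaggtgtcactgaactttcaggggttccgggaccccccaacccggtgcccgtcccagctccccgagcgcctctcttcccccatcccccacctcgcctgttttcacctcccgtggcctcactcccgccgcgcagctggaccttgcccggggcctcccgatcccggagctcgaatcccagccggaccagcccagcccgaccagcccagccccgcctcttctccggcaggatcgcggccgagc
ABCB10: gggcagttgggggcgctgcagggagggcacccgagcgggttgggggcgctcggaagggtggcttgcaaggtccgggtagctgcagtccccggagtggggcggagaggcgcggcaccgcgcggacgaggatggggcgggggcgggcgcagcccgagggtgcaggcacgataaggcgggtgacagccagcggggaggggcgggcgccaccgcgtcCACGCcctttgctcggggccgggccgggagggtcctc

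The ABCA1 window held the palindrome CACGTG, which reads as ACGTG on both strands. The ABCA7 window held GCGTG at 2 places and the ABCB10 window held it once on the opposite strand, while the ABCC6 window held neither core. There were 53 RefSeq windows for 35 of the members, since some have several start sites. The other members had no window and are left out of the counts that follow. Among them are ABCB4, ABCC1 and ABCC3, called lower in hypoxia, and ABCG1, called higher. Counting only the first window listed for each gene, 43.1% of 27305 genes and 18 of the 35 members (51.4%) held a core, among them 5 of 12 members called lower in hypoxia and 11 of 17 that were tested and not called. Counting any window, 47.4% of genes and 24 of the 35 members (68.6%) held one, among them 8 of the 12 and 13 of the 17. A gene with more windows can match more often, and windows per gene were not compared between members and all genes. The any-window shares are therefore not a like comparison. A match to these letters is a description of the sequence and was not measured as binding.

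Total counts ran from 6013980 to 40549699 per library. After TMM scaling to CPM, all 9 libraries entered 1 edgeR fit with the quasi-likelihood test. A gene was called when its FDR was below 0.05 after Benjamini-Hochberg adjustment and its fold change exceeded 1.5. Replicate 2 of vehicle at 20% O2, the smallest library, and replicate 3 of 32-134D stood apart from the other replicates of their groups on the second principal component. Hepatocyte markers were abundant, with ALB at 9284, 9536 and 8116 CPM and HNF4A at 382, 353 and 361 CPM in the 3 groups, whereas VWF and CD3E had no count, CDH5 had 1 and PTPRC had 7 counts over the 9 libraries. Of the hepatocyte markers, APOB differed most, at 4487, 406 and 3520.0 CPM. The bile duct markers KRT19, KRT7 and SOX9 were also present, as was PDGFRB, and their part in the results was not tested. The other endothelial, leukocyte and fibroblast markers listed, PECAM1, CD68, COL1A1 and COL3A1, are not given here. No absence of those cell types is therefore read from the markers named. In bulk RNA, fewer cells with a transcript and less of it per cell cannot be told apart. CA9, a target of HIF-1, moved by a log2 value of 4.38 in hypoxia and -3.36 with 32-134D against vehicle at 1% O2.

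Of the 46 members, 39 had counts summing to at least 10 and were tested, and 30 of these reached a mean of 1 CPM in at least 1 group. The 7 members not tested were ABCA13, ABCB5, ABCB11, ABCC8, ABCC12, ABCG4 and ABCG5. Together the 46 members took 1817 ± 43.0 CPM (SD, n = 3) in vehicle at 20% O2, 1377 ± 14.6 CPM in vehicle at 1% O2 and 1735 ± 49.5 CPM with 32-134D. Levels per kilobase used the union of annotated exons, which exceeded the longest transcript unevenly. It was 7589 against 4367 bases for ABCD3 and 11350 against 10494 for ABCA1, so the order of genes by this measure depends on the annotation. Per kilobase of exon, the highest level belonged to ABCF1, a translation factor, at 91.4 ± 2.11 CPM per kilobase in vehicle at 20% O2. ABCD3, a peroxisomal carrier of branched-chain acyl-CoA and bile acid intermediates, was next at 17.001 ± 0.549, followed by ABCF3 at 14.5 ± 0.411 and ABCC6 at 12.6 ± 0.631. ABCA1 at 11.6 ± 1.79 and ABCC1 at 11.6 ± 0.954 did not differ beyond their spread. In vehicle at 1% O2, ABCA1 stood at 2.85 ± 0.347 and ABCC6 at 3.12 ± 0.383 CPM per kilobase, both below the mitochondrial carrier ABCB10 at 12.5 ± 0.805.

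**Figure D1:**
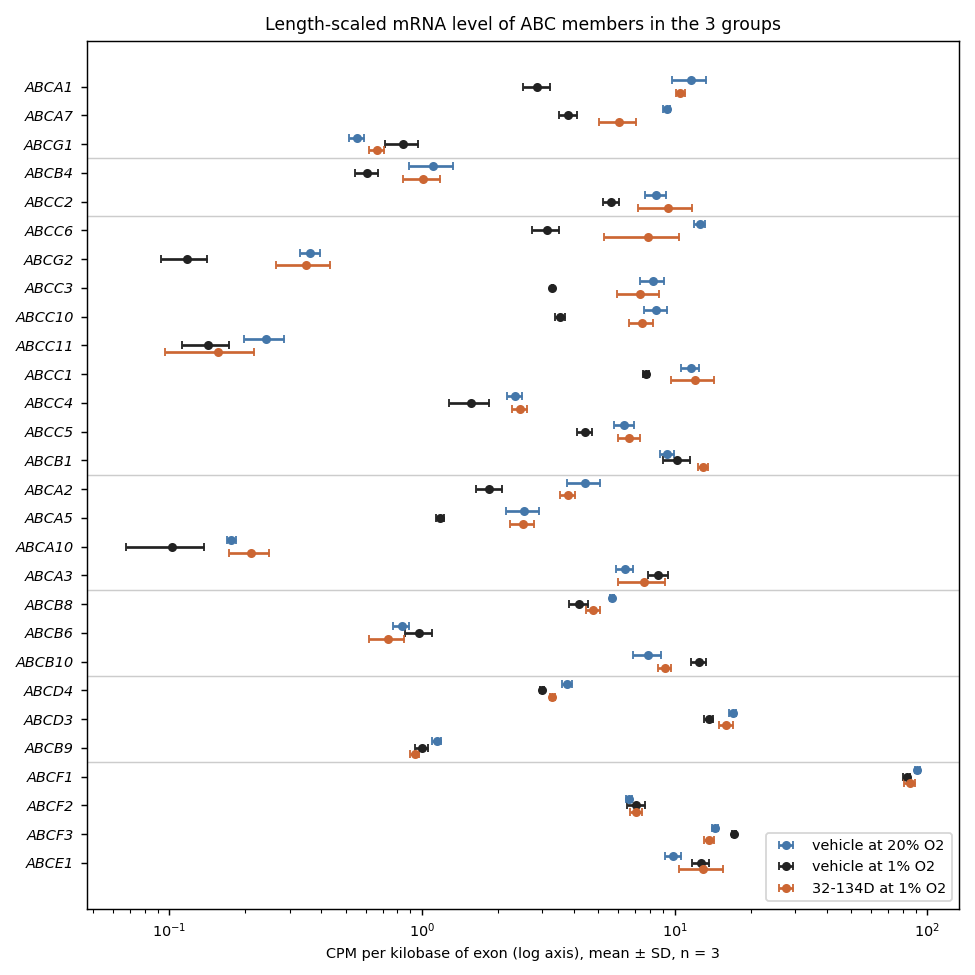
Mean level (CPM per kilobase of exon, log axis) ± SD over 3 libraries of 28 members with at least 1 CPM in a group, in blue for vehicle at 20% O2, black for vehicle at 1% O2 and orange for 32-134D at 1% O2, with grey lines between role groups. The black points of ABCA1, ABCC6, ABCC3 and ABCC10 lie to the left of the blue and orange points, and the 3 points of ABCF2 lie together.

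Hypoxia lowered more ABC members than it raised. In vehicle at 1% O2 against vehicle at 20% O2, 15 of 39 members were lower, 2 were higher (ABCB10 and ABCG1) and 22 were not called. Over all 22672 genes tested, 20.3% were lower and 19.5% were higher. Of the 30 members with at least 1 CPM, 13 were lower and 2 higher, where 23% and 26.9% of all genes with a mean of at least 1 CPM over the 9 libraries were. The median log2 fold change of the members was -0.58, against 0.00 for all genes tested. For the 30 members with at least 1 CPM it was -0.48, against 0.11 for 13860 genes with a mean of at least 1 CPM. Of the 22 members not called, 5 were lower and 4 were higher with an FDR below 0.05 and less than the fold change threshold. The number lower fell to 10 without replicate 3 of vehicle at 20% O2, the largest library of that group, and the number higher fell to 0 with scaling by total library size.

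With 32-134D more members were higher than lower. Against vehicle at 1% O2, 16 of 39 members were higher and none was lower, while over all genes tested 16.2% were higher and 13.7% were lower. These 16 include ABCD2, which reached the minimum count for testing only through its 32-134D libraries. Of the 30 members with at least 1 CPM, 14 were higher, where 18.7% of all genes with that mean were higher and 18.7% were lower. The count of 0 was given by edgeR and by DESeq2, and 5 members were lower at an unadjusted p under 0.05 in edgeR. The median log2 fold change of the members was 0.63, against -0.01 for all genes tested. For the 30 members with at least 1 CPM it was 0.29, against -0.10 for 13860 genes with a mean of at least 1 CPM. This comparison uses the same 3 vehicle libraries at 1% O2 as the hypoxia comparison, so the values of the members are given side by side and no overlap between the comparisons is read as a result. Against vehicle at 20% O2, no member was higher with 32-134D and 2 were lower, ABCA7 and ABCC6, where over all genes 3% were higher and 0.516% were lower, or 4.46% and 0.748% of those with a mean of at least 1 CPM. DESeq2 also called 0 members higher in that comparison, and 3 were higher at an unadjusted p under 0.05 in edgeR.

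**Figure D2:**
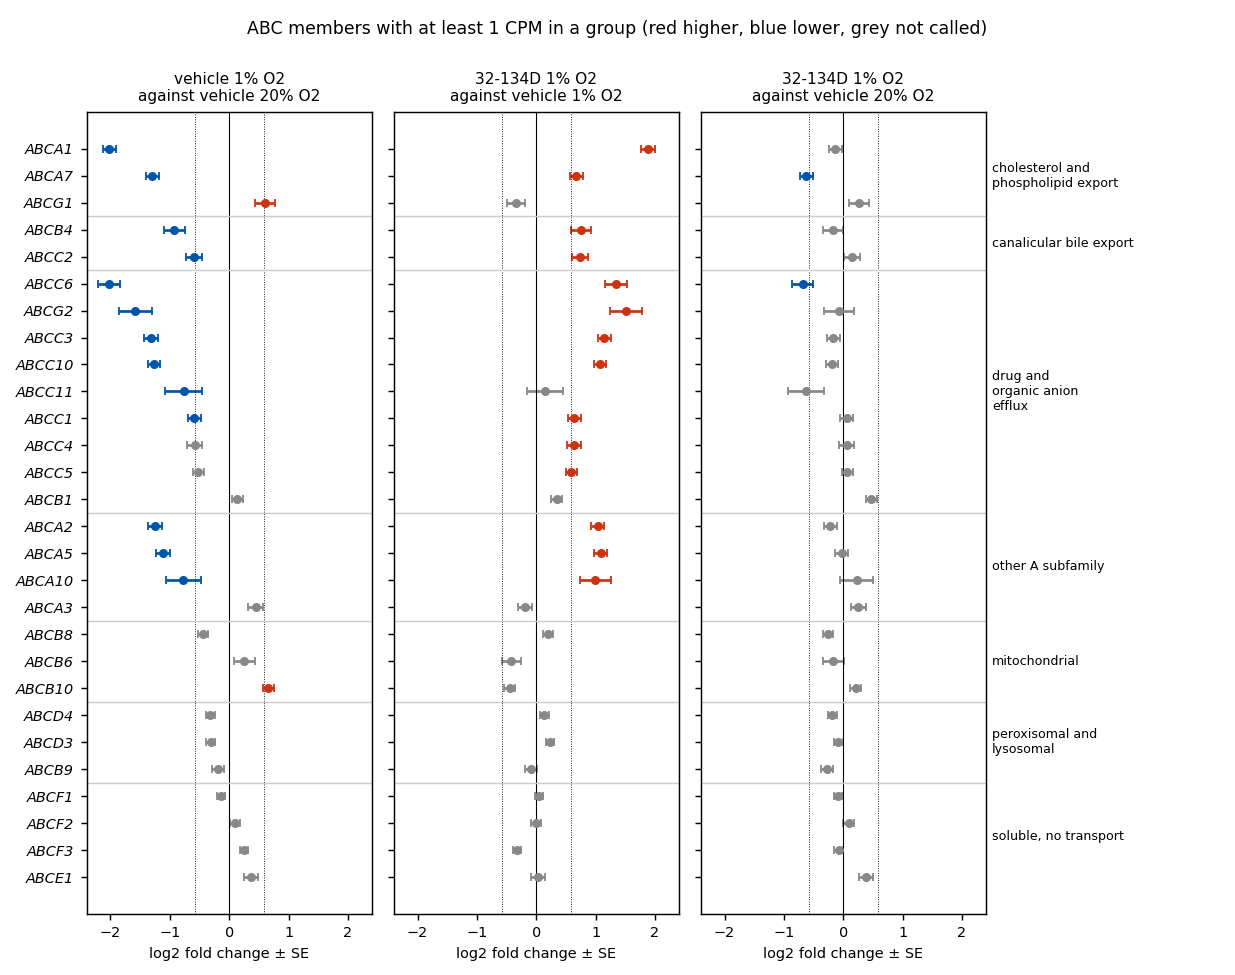
Log2 fold change ± SE from edgeR of 28 members with at least 1 CPM in a group, in 3 panels for the 3 comparisons, ordered by role and by the change in hypoxia. Red marks members called higher, blue lower and grey not called, dotted lines mark a fold change of 1.5, and the third panel is grey apart from ABCA7 and ABCC6 in blue.

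Of the 4 cholesterol and phospholipid exporters, ABCA1 and ABCA7 were lower in hypoxia, ABCG1 was higher and ABCG4, with 4 counts in all, was not tested. Over all genes tested, 20.3% were lower in hypoxia and 19.5% were higher. ABCA1 (chr9:104781002-104928237, - strand in GENCODE 29 on GRCh38) passes cholesterol and phospholipid to lipid-poor apolipoprotein A-I, the first step in forming high-density lipoprotein. Its level was 108, 141 and 145 CPM in vehicle at 20% O2, 32.2, 28.5 and 36.4 CPM in vehicle at 1% O2 and 115, 119 and 125 CPM with 32-134D. All 3 libraries of vehicle at 1% O2 lay below every library of the other groups, and those other groups overlapped. ABCA1 was 4.06-fold lower in hypoxia, with a log2 fold change of -2.02 (SE 0.11, edgeR FDR = 2.05e-09). With 32-134D it was 3.69-fold higher than in vehicle at 1% O2, a log2 fold change of 1.88 (SE 0.11, edgeR FDR = 1.14e-08). Against vehicle at 20% O2 the 32-134D value was -0.14 (SE 0.11, edgeR FDR = 0.484) and was not called.

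ABCA7 (chr19:1040101-1065572, + strand), a close relative of ABCA1 that exports phospholipid, gave 80.1, 75.1 and 78.7 CPM in vehicle at 20% O2, 29.2, 34.2 and 32.05 CPM in vehicle at 1% O2 and 55.3, 55.6 and 40.7 CPM with 32-134D. The 3 groups did not overlap, with the 32-134D libraries between the vehicle groups. The log2 fold change was -1.30 (SE 0.11, edgeR FDR = 1.51e-07) in hypoxia, 0.67 (SE 0.11, edgeR FDR = 1.30e-04) with 32-134D against vehicle at 1% O2 and -0.62 (SE 0.11, edgeR FDR = 0.002) against vehicle at 20% O2. The last of these came to -0.50 without replicate 3 of 32-134D, which was the lowest of its group, and to -0.57 without replicate 3 of vehicle at 1% O2, and was not called in either case.

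ABCG1, which exports sterols to formed high-density lipoprotein, was at 3.16, 3.61 and 3.41 CPM in vehicle at 20% O2, 5.49, 5.66 and 4.25 CPM in vehicle at 1% O2 and 3.77, 4.07 and 4.30 CPM with 32-134D. Every library at 20% O2 lay below those of vehicle at 1% O2, and the 32-134D libraries overlapped the latter. The log2 fold change was 0.61 (SE 0.17, edgeR FDR = 0.00737) in hypoxia and -0.34 (SE 0.16, edgeR FDR = 0.0849) with 32-134D, not called. The call in hypoxia was close to the fold change threshold and was lost in 10 of 19 alternatives, DESeq2 among them.

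Of the 5 canalicular exporters, 3 were tested, and ABCC2 and ABCB4 were lower in hypoxia and higher with 32-134D. Over all genes tested, 20.3% were lower in hypoxia and 16.2% were higher with 32-134D. ABCC2, which secretes bilirubin glucuronides and glutathione conjugates into bile, was at 62.5, 62.97 and 73.8 CPM in vehicle at 20% O2, 47.9, 41.9 and 42.3 CPM in vehicle at 1% O2 and 65.5, 61.8 and 94.2 CPM with 32-134D. The vehicle libraries at 1% O2 lay below all others, and the 32-134D group was wide because of replicate 3. The log2 value for ABCC2 was -0.60 (SE 0.14, edgeR FDR = 0.00164) in hypoxia and 0.74 (SE 0.13, edgeR FDR = 3.16e-04) with 32-134D. Without replicate 3 of 32-134D the second value came to 0.53 and was not called, and the first lost its call, at -0.51 to -0.58, without replicate 3 of vehicle at 20% O2 or replicate 2 or 3 of vehicle at 1% O2.

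ABCB4, which moves phosphatidylcholine into bile, was at 9.39, 6.60 and 9.70 CPM in vehicle at 20% O2, 4.11, 4.90 and 5.01 CPM in vehicle at 1% O2 and 7.998, 8.95 and 6.40 CPM with 32-134D. Again the groups at 20% O2 and with 32-134D overlapped each other and neither overlapped vehicle at 1% O2. Hypoxia gave a log2 fold change of -0.92 (SE 0.17, edgeR FDR = 3.37e-04), and it was 0.75 (SE 0.17, edgeR FDR = 0.00173) with 32-134D. The bile salt export pump ABCB11 had 6 counts over the 9 libraries, and the sterol exporters ABCG5 and ABCG8 had 9 and 16, so no change in them was detectable at this depth. ABCG8, the only one of the 3 that was tested, had no more than 5 counts in a library and an FDR of 0.982 in hypoxia and 0.148 with 32-134D from edgeR.

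Among the 12 members grouped under drug and organic anion efflux, the pseudogene ABCC13 included, 10 were tested. Of these, 6 were lower in hypoxia and 7 were higher with 32-134D, where 20.3% and 16.2% of all genes tested were. ABCC6 (chr16:16148928-16223522, - strand), a hepatic transporter that drives the release of ATP and is mutated in the connective tissue disorder pseudoxanthoma elasticum, was at 90.6, 95.8 and 100.2 CPM in vehicle at 20% O2, 20.6, 23.9 and 26.3 CPM in vehicle at 1% O2 and 70.5, 70.4 and 36.95 CPM with 32-134D. Vehicle at 1% O2 lay below both other groups, replicate 3 of 32-134D lay well below replicates 1 and 2, and the 32-134D libraries lay below those at 20% O2. ABCC6 was 4.06-fold lower in hypoxia, a log2 fold change of -2.02 (SE 0.19, edgeR FDR = 3.58e-07). It was 2.53-fold higher with 32-134D than in vehicle at 1% O2, a log2 fold change of 1.34 (SE 0.18, edgeR FDR = 2.96e-05). Against vehicle at 20% O2 it was -0.68 (SE 0.18, edgeR FDR = 0.0262), and neither this value nor that of ABCA7 was called without replicate 3 of 32-134D. The ABCC6 call against vehicle at 20% O2 was also lost when any 1 of the 3 vehicle libraries at 20% O2 was left out, at -0.72, -0.68 and -0.65.

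ABCC6 shares near-identical sequence with the pseudogenes ABCC6P1 and ABCC6P2, so its counts are uncertain. These had 5760 and 472 counts and moved alike, with log2 fold changes of -1.29 and -1.88 in hypoxia and 0.79 and 1.21 with 32-134D. With all 3 genes summed, the log2 fold change was -1.77 in hypoxia and 1.14 with 32-134D, and both were still called.

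ABCC3, which exports glucuronides and bile salts across the basolateral membrane to blood, was at 69.8, 86.8 and 80.1 CPM in vehicle at 20% O2, 31.8, 31.3 and 31.7 CPM in vehicle at 1% O2 and 61.7, 63.3 and 85.4 CPM with 32-134D. The vehicle libraries at 1% O2 were nearly equal to each other and lay below all others. In hypoxia the log2 fold change was -1.32 (SE 0.12, edgeR FDR = 2.46e-07), and it was 1.15 (SE 0.12, edgeR FDR = 1.56e-06) with 32-134D.

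ABCC10 (chr6:43427366-43450430, + strand), a pump for lipophilic anions and taxanes, was at 60.2, 72.9 and 72.1 CPM in vehicle at 20% O2, 27.6, 28.01 and 29.9 CPM in vehicle at 1% O2 and 55.1, 57.2 and 67.4 CPM with 32-134D. The group at 1% O2 with vehicle was lower than both others without overlap. Expressed as log2 fold changes, ABCC10 stood at -1.26 (SE 0.10, edgeR FDR = 5.66e-08) in hypoxia and 1.07 (SE 0.10, edgeR FDR = 5.49e-07) with 32-134D.

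ABCG2, the breast cancer resistance protein, was low at 2.01, 1.73 and 1.73 CPM in vehicle at 20% O2, 0.716, 0.471 and 0.588 CPM in vehicle at 1% O2 and 1.30, 1.82 and 2.15 CPM with 32-134D. Even at this level vehicle at 1% O2 did not overlap the other groups. ABCG2 had log2 fold changes of -1.58 (SE 0.28, edgeR FDR = 2.37e-04) in hypoxia and 1.51 (SE 0.27, edgeR FDR = 2.74e-04) with 32-134D.

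ABCC1, which exports glutathione conjugates and leukotrienes, was at 79.7, 93.6 and 90.03 CPM in vehicle at 20% O2, 58.7, 59.8 and 56.6 CPM in vehicle at 1% O2 and 80.6, 81.4 and 112 CPM with 32-134D. Vehicle at 1% O2 was again below both groups. The log2 fold change was -0.59 (SE 0.11, edgeR FDR = 4.36e-04) in hypoxia and 0.64 (SE 0.11, edgeR FDR = 2.26e-04) with 32-134D, and without replicate 3 of 32-134D the second value came to 0.47 and was not called. The hypoxia call of ABCC1 was lost, at -0.54 to -0.57, without replicate 2 or 3 of vehicle at 20% O2 or replicate 3 of vehicle at 1% O2.

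ABCC4 and ABCC5, both known to export cyclic nucleotides, were near the fold change threshold in hypoxia and did not pass it. Their log2 fold changes were -0.58 (SE 0.13, edgeR FDR = 0.00131) for ABCC4 and -0.52 (SE 0.09, edgeR FDR = 2.43e-04) for ABCC5. Under the alternatives ABCC4 was called lower in hypoxia in 11 of 19, DESeq2 among them, and ABCC5 in 4 of 19. With 32-134D both passed the threshold, at 0.63 (SE 0.12, edgeR FDR = 5.99e-04) and 0.59 (SE 0.09, edgeR FDR = 9.20e-05). Both lost that call without replicate 2 of vehicle at 1% O2, ABCC4 also without replicate 2 and ABCC5 without replicate 3 of 32-134D. Since these values lie near the threshold of 0.58 on the log2 scale, the call in only 1 of the comparisons does not show that the effects differed in size, which was not tested.

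ABCC11, a transporter of lipophilic anions, was at 1.43, 1.73 and 2.07 CPM in vehicle at 20% O2, 1.27, 0.849 and 0.968 CPM in vehicle at 1% O2 and 1.28, 1.48 and 0.640 CPM with 32-134D. The 32-134D group overlapped both vehicle groups. It was called lower in hypoxia at -0.77 (SE 0.31, edgeR FDR = 0.0483), a call lost in 8 of 19 alternatives. Its exons overlap LONP2 on the opposite strand, which had 13148 counts against 296 for ABCC11, and the strand setting of the counting is not given in the sources used here.

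ABCB1, the multidrug efflux pump P-glycoprotein, did not follow the others. It was at 55.5, 50.4 and 56.7 CPM in vehicle at 20% O2, 67.1, 59.4 and 52.4 CPM in vehicle at 1% O2 and 73.5, 73.9 and 79.4 CPM with 32-134D. The vehicle groups overlapped, and every 32-134D library was above all vehicle libraries. Its log2 fold change was 0.13 (SE 0.09, edgeR FDR = 0.253) in hypoxia, 0.34 (SE 0.09, edgeR FDR = 0.00581) with 32-134D against vehicle at 1% O2 and 0.47 (SE 0.09, edgeR FDR = 0.00453) against vehicle at 20% O2, so that the last 2 passed the FDR and not the fold change threshold. The pseudogene ABCC13, with a highest mean below 1 CPM, was not called in any comparison.

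**Figure D3:**
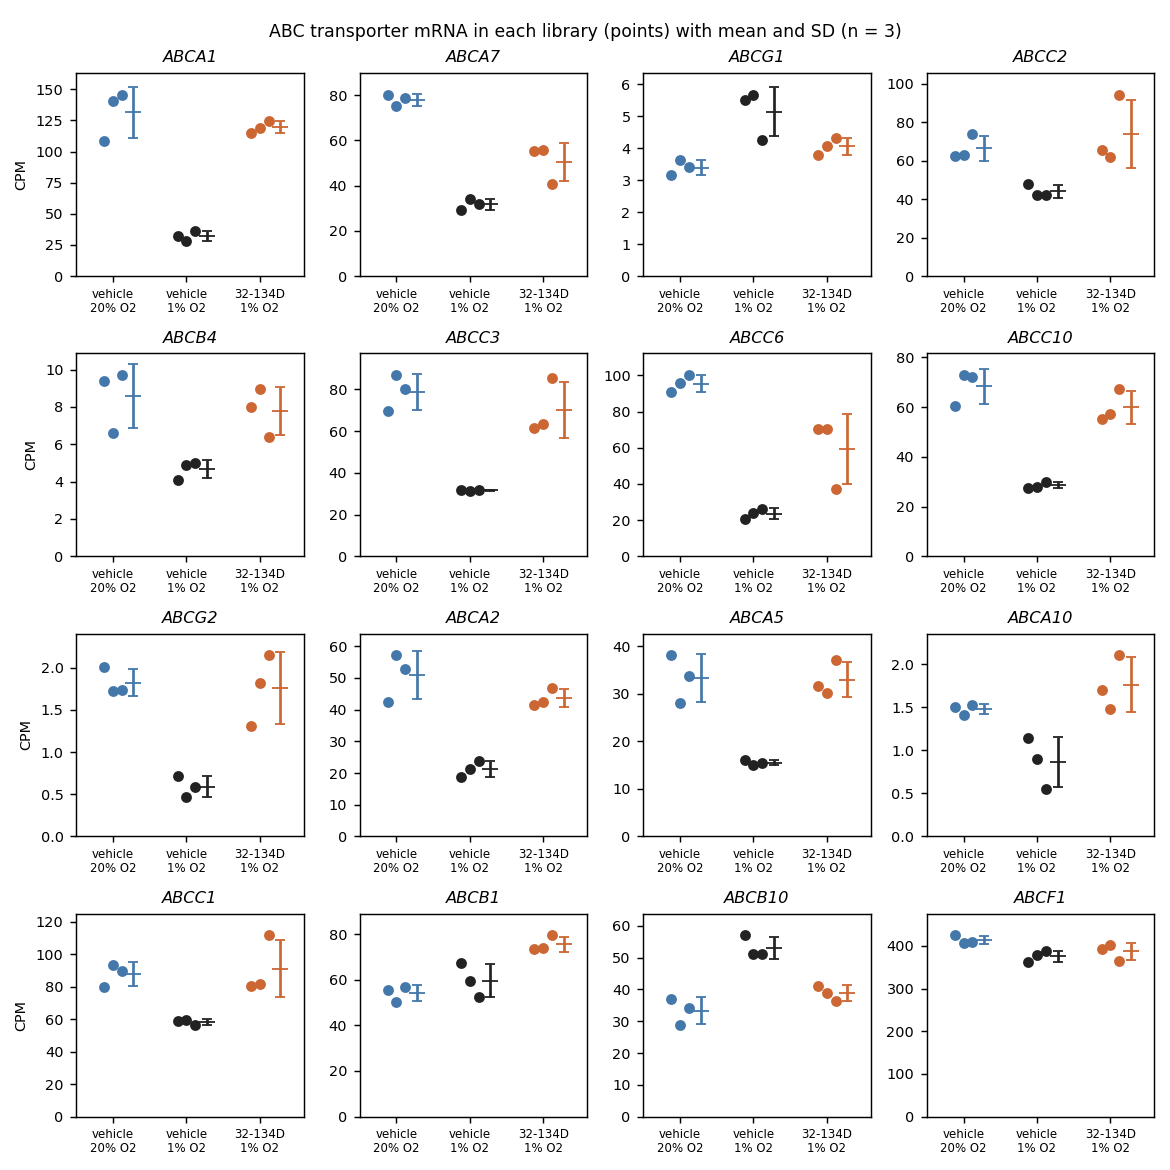
Level (CPM) of 16 members in each library, as points in blue for vehicle at 20% O2, black for vehicle at 1% O2 and orange for 32-134D at 1% O2, with the mean and SD (n = 3) beside them and each axis starting at 0. The black points are below the others for ABCA1, ABCA7, ABCC3, ABCC6 and ABCC10, above them for ABCB10, and the orange points are the highest for ABCB1.

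Of the 10 other members of subfamily A, 9 were tested, 4 were lower in hypoxia and 4 were higher with 32-134D, against 20.3% and 16.2% of all genes tested. ABCA2, an endolysosomal protein of sterol trafficking, was at 42.5, 57.2 and 52.98 CPM in vehicle at 20% O2, 18.8, 21.4 and 23.8 CPM in vehicle at 1% O2 and 41.6, 42.3 and 46.9 CPM with 32-134D. Vehicle at 1% O2 was below both other groups. Its log2 fold change was -1.25 (SE 0.12, edgeR FDR = 3.44e-07) in hypoxia and 1.03 (SE 0.11, edgeR FDR = 3.50e-06) with 32-134D.

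ABCA5, of late endosomes and lysosomes, was at 38.1, 28.1 and 33.7 CPM in vehicle at 20% O2, 16.1, 15.04 and 15.4 CPM in vehicle at 1% O2 and 31.7, 30.2 and 37.2 CPM with 32-134D. Its groups separated in the same way, with log2 fold changes of -1.12 (SE 0.12, edgeR FDR = 1.04e-06) and 1.09 (SE 0.11, edgeR FDR = 1.91e-06). The neighbouring gene ABCA10 was at 1.51, 1.41 and 1.52 CPM in vehicle at 20% O2, 1.14, 0.896 and 0.553 CPM in vehicle at 1% O2 and 1.70, 1.48 and 2.10 CPM with 32-134D, with log2 fold changes of -0.77 (SE 0.29, edgeR FDR = 0.0384) and 1.00 (SE 0.27, edgeR FDR = 0.00651). Exons of ABCA5 and ABCA10 share 318 bases on the same strand, and ABCA10 had 308 counts against 6015, so reads may have been split between them. The hypoxia call of ABCA10 was lost, at -0.54 to -0.82, when any 1 vehicle library other than replicate 1 at 1% O2 was left out. The fourth, ABCA6, had 59 counts in all and stayed below 1 CPM in every library, and its calls were lost when some single libraries were left out.

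ABCA3, which loads surfactant phospholipid into lamellar bodies of the lung, was at 45.2, 52.1 and 51.4 CPM in vehicle at 20% O2, 73.2, 67.8 and 61.05 CPM in vehicle at 1% O2 and 52.6, 51.1 and 73.7 CPM with 32-134D. Every library of vehicle at 1% O2 was above those at 20% O2, and the log2 fold change of 0.44 (SE 0.13, edgeR FDR = 0.00793) was under the fold change threshold. ABCA4, ABCA8, ABCA9 and ABCA12 were below 1 CPM in all libraries and were not called, and ABCA13 had no count. Of these ABCA9 was near the FDR threshold, with log2 fold changes of -1.93 (SE 0.79, edgeR FDR = 0.0534) in hypoxia and 1.82 (SE 0.76, edgeR FDR = 0.0618) with 32-134D, and was called lower in 8 of 18 alternatives for the first and higher in 6 of 18 for the second.

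Of the 4 mitochondrial members, 1 was called higher in hypoxia and none was called lower, where 19.5% and 20.3% of all genes tested were. A set of 4 is too small to be told apart from these shares. ABCB10 (chr1:229516582-229558695, - strand), which acts in heme synthesis at the inner membrane, was at 37.1, 28.7 and 34.2 CPM in vehicle at 20% O2, 57.01, 51.1 and 51.1 CPM in vehicle at 1% O2 and 41.2, 38.98 and 36.4 CPM with 32-134D. The vehicle libraries at 1% O2 lay above every other library. Its log2 fold change was 0.66 (SE 0.10, edgeR FDR = 3.56e-05) in hypoxia and -0.45 (SE 0.09, edgeR FDR = 0.00101) with 32-134D, the latter under the fold change threshold. The hypoxia value was still above 0, at 0.45, with scaling by total library size, but was then not called, and the call was also lost at 0.58 without replicate 2 of vehicle at 20% O2.

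ABCB8, also of the inner membrane, was lower in hypoxia by the FDR alone at -0.44 (SE 0.09, edgeR FDR = 4.65e-04), and ABCB6, linked to porphyrin transport, was at 0.26 (SE 0.17, edgeR FDR = 0.226) in hypoxia.

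None of the 5 peroxisomal and lysosomal members was called in hypoxia, where 19.5% of all genes tested were higher and 20.3% were lower. The peroxisomal carrier ABCD3 gave log2 fold changes of -0.31 (SE 0.07, edgeR FDR = 0.00172) in hypoxia and 0.23 (SE 0.07, edgeR FDR = 0.0142) with 32-134D, both past the FDR and under the fold change threshold. ABCD4, needed for cobalamin release from lysosomes, gave -0.32 (SE 0.08, edgeR FDR = 0.00354) in hypoxia, also past the FDR alone, and 0.13 (SE 0.08, edgeR FDR = 0.179) with 32-134D. The lysosomal peptide carrier ABCB9 gave -0.19 (SE 0.10, edgeR FDR = 0.129) and -0.08 (SE 0.10, edgeR FDR = 0.529). Exons of ABCB9 overlap OGFOD2 on the opposite strand, which had 1358 counts against 3042 for ABCB9. ABCD2 was called higher with 32-134D on 15 counts against 2 over 3 libraries each, a ratio of 7.59 with a 95% exact interval of 1.76 to 68.4 that covers counting error only. Of its 22 counts over the 9 libraries, 15 came from 32-134D, and it reached the minimum of 10 for testing only through that group.

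None of the 4 soluble members was called in any comparison. In hypoxia, 19.5% of all genes tested were higher and 20.3% were lower. With 32-134D these shares were 16.2% and 13.7% against vehicle at 1% O2, and 3% and 0.516% against vehicle at 20% O2. ABCF1 was at 424, 407 and 409 CPM in vehicle at 20% O2, 361, 379 and 387 CPM in vehicle at 1% O2 and 394, 402 and 365 CPM with 32-134D. Vehicle at 20% O2 lay above both other groups, which overlapped each other, and its log2 fold changes were -0.14 (SE 0.07) in hypoxia and 0.04 (SE 0.07) with 32-134D. ABCE1, which splits ribosomes for recycling, gave 0.36 (SE 0.12, edgeR FDR = 0.0163) in hypoxia and 0.39 (SE 0.12, edgeR FDR = 0.0483) with 32-134D against vehicle at 20% O2. Exons of ABCE1 overlap OTUD4 on the opposite strand, which had 10635 counts against 17218 for ABCE1. ABCF3 gave 0.24 (SE 0.07, edgeR FDR = 0.0077) and -0.32 (SE 0.07, edgeR FDR = 0.00106) and ABCF2 0.10 (SE 0.09) and -0.00 (SE 0.09) in hypoxia and with 32-134D. Of the sulfonylurea receptors, which regulate potassium channels, ABCC8 had 3 counts. ABCC9 was called lower in hypoxia on 2 counts against 14, a ratio of 0.0865 with a 95% exact interval of 0.00954 to 0.377 for counting error only, and the counts at 20% O2 were 2, 7 and 5 in the 3 replicates. That call was lost without replicate 2 of vehicle at 20% O2 or replicate 1 or 3 of vehicle at 1% O2, and the ABCD2 call without replicate 1 of 32-134D and with DESeq2.

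The members differed from most genes in length, and changes in both comparisons moved with transcript length. The longest transcript of the 30 members with a mean of at least 1 CPM had a median of 4820 bases, against 3488 for 13860 genes at that level. In hypoxia, 42.5% of genes with a longest transcript above 8 kb were lower and 13.6% were higher, whereas of genes between 1 and 2 kb 17% were lower and 32% were higher. Among the members, 0 of 8 between 3 and 4 kb were lower, where 19.8% of all genes of that length were. The count was 3 of 7 between 4 and 5 kb, against 21.5% of genes, 4 of 5 between 5 and 6 kb, against 25.7%, 3 of 6 between 6 and 8 kb, against 28.8%, and 3 of 3 above 8 kb. With trends over length and GC content removed within each library, an alternative chosen after seeing the data, 12 members were lower and 1 was higher in hypoxia, and 11 were higher with 32-134D. Over all genes, 20.7% were then lower and 17.3% higher in hypoxia, and 15.7% were higher with 32-134D. The median of the members was -0.42 in hypoxia and 0.39 with 32-134D.

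With those trends removed, the log2 fold change in hypoxia was -1.4998 for ABCA1, -1.78 for ABCC6, -1.76 for ABCG2, -1.12 for ABCC3 and -1.09 for ABCC10, all still called. The calls of ABCB10, ABCG1, ABCC1, ABCC2 and ABCC11 in hypoxia were lost, and ABCA3 was then called higher at 0.82. The calls of ABCA2, ABCA7, ABCC1, ABCC4 and ABCC5 with 32-134D were lost. ABCA1, ABCA2, ABCA5, ABCA7, ABCB4, ABCC3, ABCC6, ABCC10 and ABCG2 were called lower in hypoxia under every alternative run with the fold change threshold kept at 1.5.

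**Figure D4:**
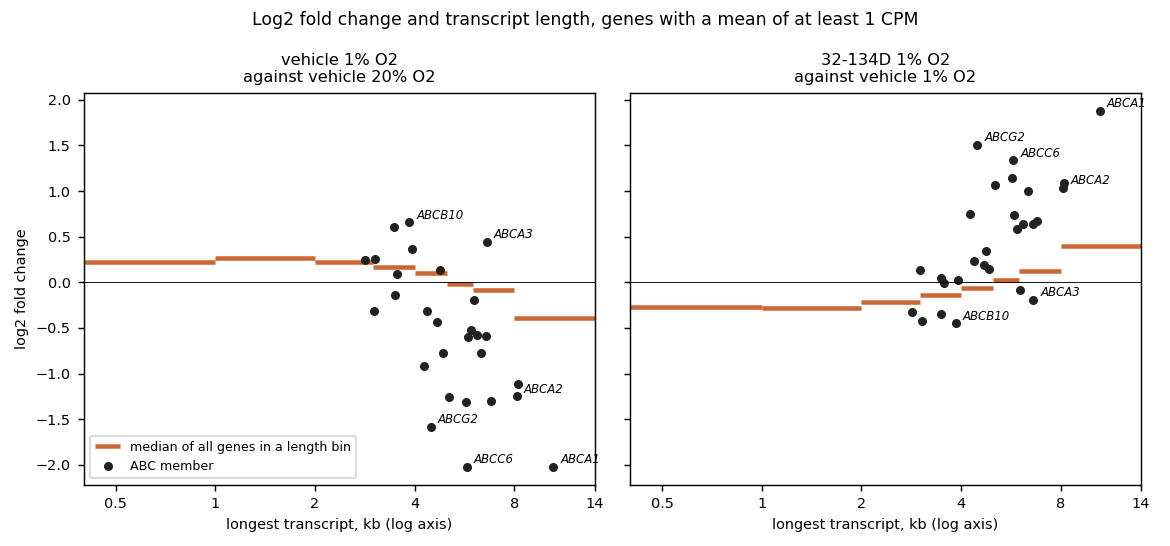
Log2 fold change against the longest transcript (kb, log axis) for 28 members with a mean of at least 1 CPM (black points) and the median of all genes at that level in each length bin (orange lines), for the hypoxia comparison on the left and 32-134D against vehicle at 1% O2 on the right. The orange lines fall from 0.22 below 1 kb to -0.39 above 8 kb on the left and rise from -0.27 to 0.40 on the right, and ABCA1 and ABCC6 lie far from the line at their length.

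The genes that work with ABC transporters were taken as a list of 57 genes, of which 55 were tested. In hypoxia 15 were higher and 16 were lower, where 19.5% and 20.3% of all genes tested were, or 26.9% and 23% of those with a mean of at least 1 CPM. With 32-134D 11 were higher and 9 were lower, where 16.2% and 13.7% of all genes tested were, or 18.7% and 18.7% at that mean. As shares of the 55, these counts were above those of all genes tested and nearer to those at that mean. No difference from either was tested. Of 6 uptake carriers for bile acids and drugs, 5 were tested, 4 were lower in hypoxia and 4 were higher with 32-134D, against 20.3% and 16.2% of all genes tested. SLCO1B1, which takes up statins and bilirubin, was at 2.08 CPM in vehicle at 20% O2, 0.0814 CPM in vehicle at 1% O2 and 1.02 CPM with 32-134D, with log2 fold changes of -4.49 (SE 0.78, edgeR FDR = 1.82e-04) and 3.50 (SE 0.81, edgeR FDR = 0.00227). SLC22A7, an organic anion carrier, had log2 fold changes of -3.91 (SE 0.48) and 3.07 (SE 0.48), and SLCO2B1 had -2.60 (SE 0.24) and 1.97 (SE 0.24).

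Of 5 other hepatic efflux genes, 4 were lower in hypoxia (20.3% of all genes tested), among them SLC51B, a subunit of the basolateral bile acid exporter, at -1.76 (SE 0.43), and the copper pump ATP7B at -1.16 (SE 0.15). ATP7B was higher with 32-134D at 0.83 (SE 0.15), and SLC51B, at 0.70 (SE 0.43), was not called.

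Among the nuclear receptors and other regulators, 2 of 14 tested were higher and 4 were lower in hypoxia, near the 19.5% and 20.3% of all genes tested. NR1H4, the bile acid receptor, had a log2 change in hypoxia of -2.08 (SE 0.41, edgeR FDR = 5.74e-04) and of 1.53 (SE 0.40, edgeR FDR = 0.00577) with 32-134D. SREBF1, which drives fatty acid synthesis, had -1.4999 (SE 0.07, edgeR FDR = 3.24e-10) and 1.16 (SE 0.07, edgeR FDR = 1.04e-08), and RXRA, the common partner of these receptors, -1.18 (SE 0.14, edgeR FDR = 5.54e-06) and 0.71 (SE 0.14, edgeR FDR = 7.84e-04). NR1H2, the liver X receptor beta that activates ABCA1 and ABCG1, was higher in hypoxia at 0.79 (SE 0.07, edgeR FDR = 3.74e-07) and lower with 32-134D at -0.65 (SE 0.07, edgeR FDR = 4.24e-06). Its relative NR1H3 was at -0.15 (SE 0.10) and -0.05 (SE 0.10), neither called.

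Of 6 sterol acceptors and partners, 3 were higher in hypoxia and 3 were lower with 32-134D, where 19.5% and 13.7% of all genes tested were. These were NPC1, which exports cholesterol from lysosomes, at 1.49 (SE 0.08, edgeR FDR = 1.58e-09) and -0.95 (SE 0.08, edgeR FDR = 2.37e-07), LCAT, which esterifies cholesterol on lipoproteins, at 1.09 (SE 0.23) and -1.09 (SE 0.21), and NPC2 at 0.93 (SE 0.09) and -0.75 (SE 0.09). APOA1, the acceptor for ABCA1, was not called in either.

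ABC proteins with other symbols also differed among themselves. TAP1, of the antigen peptide transporter, was at 5.67, 4.71 and 6.36 CPM in vehicle at 20% O2, 26.7, 26.9 and 23.8 CPM in vehicle at 1% O2 and 12.3, 10.9 and 8.41 CPM with 32-134D. Its log2 fold change was 2.16 (SE 0.15, edgeR FDR = 1.83e-08) in hypoxia and -1.28 (SE 0.13, edgeR FDR = 2.26e-06) with 32-134D. Its partner TAP2 was at 0.04 (SE 0.23) and 0.19 (SE 0.21), not called. The chloride channel CFTR, with 80 counts in all, was lower in hypoxia at -2.71 (SE 0.62) and higher with 32-134D at 2.96 (SE 0.57). In translation, the ribosome rescue factor PELO, a partner of ABCE1, was higher in hypoxia at 1.71 (SE 0.10, edgeR FDR = 2.40e-09) and lower with 32-134D at -1.13 (SE 0.09, edgeR FDR = 1.79e-07).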

How the data were processed

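RNA-seq was performed on 9 libraries of Hep3B cells in 3 groups of 3. The authors deposited 1 table of raw read counts per Ensembl gene on GRCh38; per the labels and the study's methods, reads were checked with FastQC, mapped with STAR and counted with featureCounts, with versions and strand setting not given in the sources used here. All columns were matched to samples by name and 0 were left unmapped. Members and lists were chosen with earlier results of these data known.

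Genes whose 9 counts added to 10 or more were kept (22672), scaled by TMM and tested with edgeR 4.0.16 in R 4.3.3 by the quasi-likelihood test, with group as the only term. Calls needed an FDR below 0.05 (Benjamini-Hochberg over all genes) and a fold change above 1.5. The standard error was the log2 fold change divided by the square root of F. CPM are TMM-scaled, and levels per kilobase used the exon union of GENCODE 29. DESeq2 1.42.0, other scalings, filters and fold thresholds, a replicate block and leaving out libraries were the alternatives. The procedure was tested on simulated counts. Members called in the hypoxia or 32-134D comparison with at least 1 CPM (up to 12 per direction by size) and 9 hepatic members were given by library. Replicates differed by more than counting error (chi-square per degree of freedom 1.64 to 40.5). Same-numbered libraries did not deviate together (r from -0.03 to 0.01), so replicate numbers were not taken as pairs. The medium is DMEM with F12 in the labels and high-glucose DMEM in the methods. Single values and plots of 2 members are not reported here. Promoter windows came from RefSeq, and the values at 3 replicates per group limit the precision.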

Additional observations from a re-analysis of the deposited data

How the results depend on the processing

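Of the values recomputed for single members, 2059 kept their call or stayed uncalled, 85 lost a call, 33 gained one and 0 turned direction past the threshold. Values that stayed uncalled could change sign, as ABCB9 did in hypoxia, from -0.19 to 0.16 with length and GC trends removed. With scaling by total library size, the median of all genes moved by -0.21 in hypoxia and 0.18 with 32-134D, the share of calls that were higher went from 49.0% to 34.5% in hypoxia and from 54.2% to 72.0% with 32-134D, no member was called higher in hypoxia, 8 companion genes were, and the member medians were -0.79 and 0.82.

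For members higher in hypoxia (2), the count was 1 with DESeq2, with its size factors, with thinning to the smallest library, without the 2 libraries that stood apart and with length and GC trends removed. It was 0 with a minimum of 10 counts per library and with a fold change above 2, and 6 with no fold threshold. With a fold change above 2, 9 members were higher with 32-134D and 0 were lower against vehicle at 20% O2, while companion genes numbered 6 higher in hypoxia, 7 higher and 3 lower with 32-134D, and 0 higher against vehicle at 20% O2. With no fold threshold, 4 members were lower with 32-134D and 2 were higher against vehicle at 20% O2, and companion genes numbered 17 higher and 21 lower with 32-134D and 6 higher and 3 lower against vehicle at 20% O2.

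The member median in hypoxia was -0.49 with no filter on low counts and -0.42 with length and GC trends removed. With 32-134D it was 0.33 with a minimum of 10 counts per library, 0.53 with thinning, 0.53 without the 2 libraries that stood apart and 0.39 with the trends removed. The 2 members lower with 32-134D than in vehicle at 20% O2 became 1 in a fit of only those groups, 0 without the 2 libraries that stood apart and 1 with the trends removed. Companion genes lower in hypoxia were 10 with a minimum of 10 counts per library. Against vehicle at 20% O2, companion genes higher were 4 with thinning, and those lower were 1 with DESeq2, 4 with no filter and 2 with thinning. The causes were not tested.

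When each library was left out in turn, members higher in hypoxia ranged from 1 to 2 and the member median from -0.63 to -0.49. With 32-134D that median ranged from 0.53 to 0.69. Against vehicle at 20% O2, members lower ranged from 0 to 2, companion genes higher from 2 to 4 and companion genes lower from 0 to 4. A block for replicate number gave 11 members lower and 2 higher in hypoxia, 15 higher with 32-134D and 2 lower against vehicle at 20% O2. Its member median was -0.58 in hypoxia and 0.63 with 32-134D.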
